A study of Mus musculus with 7 samples.

Results

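BRG1 binding in resting Th1 cells was compared with BRG1 binding in resting Th2 cells, the unstimulated members of a mouse helper T cell series in which BRG1 was mapped by chromatin immunoprecipitation and sequencing (ChIP-seq). The comparison used the resting Th1 library, the resting Th2 library and the input library, 3 of the 7 libraries of the series, chosen by their labels. The libraries of stimulated Th1, stimulated Th2, stimulated Th17 and naive cells added positions to the set of regions but no reads to the ratios between the resting libraries, and were read in the same places as separate measurements. Every group had 1 library, so each ratio compares libraries and not conditions, no difference has a replicate check, and no p-value is given.

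BRG1 is the ATPase that drives the SWI/SNF (BAF) chromatin remodelling complex, which moves or ejects nucleosomes and so opens DNA to other factors. Th1 cells arise under IL-12, depend on the transcription factor T-bet and make IFN-γ, whereas Th2 cells arise under IL-4, depend on GATA3 and make IL-4, IL-5 and IL-13. Resting effector cells make little cytokine until they are restimulated, so the resting libraries show BRG1 before that signal.

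Both cultures began with CD4+CD62L+ naive cells of 95% purity from Balb/c mice 4 to 6 weeks old, and both were activated with anti-CD3 at 1 µg/ml and anti-CD28 at 2 µg/ml. Resting Th1 cells were polarised with IL-12 at 1 ng/ml and anti-IL-4 at 10 µg/ml. Resting Th2 cells were polarised with IL-4 at 10 ng/ml and anti-IFN-γ at 10 µg/ml. IL-2 at 100 U/ml was given to both after 24 h. The stimulated libraries came from cells that were also treated for 1.5 h with PMA (50 ng/ml) plus ionomycin (500 ng/ml). The Th17 culture was activated differently, with anti-CD3 at 4 µg/ml and anti-CD28 at 1 µg/ml. It had anti-IL-4 and anti-IFN-γ at 10 µg/ml each, and no IL-2 is listed for it. The input was DNA of CD4+ T cells without immunoprecipitation. The share of each culture that had become Th1 or Th2 is not given in the labels, and no annotation on mm9, the build of the files, was used, so the cultures were not checked against marker genes and regions are given by position alone.

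The deposited lists held 2529147 reads for resting Th1, 2114977 for resting Th2 and 3807367 for input. After 1 read was kept per 5′ end and strand, and chromosome Y was left out, 1808000 distinct reads remained in resting Th1, 1340208 in resting Th2 and 3531867 in input. Repeated reads made up 28.5% of resting Th1, 36.6% of resting Th2 and 7.23% of input. All levels below are RPM, the reads per 1000000 distinct reads. The exact 95% intervals take in counting error alone, since PCR reads carried no molecular identifiers and need not stand for separate molecules. At these depths a count of 0 allows up to 3 reads, or 1.66 RPM in resting Th1 and 2.24 RPM in resting Th2.

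With both libraries at an equal number of reads, 7002 bound regions were called in resting Th1 and 8545 in resting Th2. A region here is a run of 200 bp windows with more reads than a Poisson tail of 1e-05 allows for the local input. Own regions held 5.20% of the reads of resting Th1 (5.17 to 5.23) and 6.78% of the reads of resting Th2 (6.74 to 6.82), while 0.801% and 0.916% of the input reads fell in those places. Both sets were narrow, with a median width of 200 bp. The regions overlapping between the subsets, 3471 by the count of resting Th1, made up 49.6% of the resting Th1 regions (48.4 to 50.7) and 40.6% of the resting Th2 regions (39.6 to 41.7).

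The regions called in both subsets had more reads per kilobase than the others, in BRG1 and in input alike. Per kilobase, the shared regions of resting Th1 carried 38.5 RPM in resting Th1, 40.7 in resting Th2, 20.9 in naive cells and 5.85 in input. The 3531 regions called in resting Th1 but not in resting Th2 carried 25.6 RPM per kilobase in resting Th1 and still 12.2 in resting Th2, which was 3.01 times the input. Conversely, the 5074 regions called in resting Th2 but not in resting Th1 carried 11.7 RPM per kilobase in resting Th1, 3.16 times the input, and 28.2 in resting Th2. Over the input, the library that made the call stood at 6.58 times in the shared and 6.33 times in the other regions of resting Th1, and at 7.21 times in the shared and 7.64 times in the other regions of resting Th2. In the library that made the call, the shared regions therefore stood slightly higher over the input in resting Th1 and lower in resting Th2. In the other library the shared regions stood higher. Resting Th2 was at 6.95 times the input in the shared regions of resting Th1, beside 3.01 in the others. Resting Th1 was at 6.34 times in the shared regions of resting Th2, beside 3.16 in the others, and a call was missing there. A missing call was not a missing signal, and differences were taken from the reads and not from the calls.

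Reads were counted in the union of 26338 regions called in any of the 6 BRG1 libraries, of which 11005 had at least 10 reads in the 2 resting libraries together and 15333 were not tested. Across the tested regions, the ratio of resting Th1 to resting Th2 had a median of 0.900 (0.890 to 0.912), or -0.15 on the log2 scale. The middle 50% of ratios lay between 0.606 and 1.36, and 71.3% of regions were within 2-fold. Levels of the 2 libraries correlated with a Pearson r of 0.44 across regions on the log2 scale, a description across regions of the same 2 libraries and not across replicates.

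A region was called different when it reached 3-fold and the interval of its ratio did not contain 1. By that rule 235 regions were higher in resting Th1, 2.14% of those tested, and 534 were higher in resting Th2, 4.85% of those tested, so that 769 or 6.99% differed in either direction. The excess on the Th2 side depended on the scale: measured against the median ratio instead of the read totals, 356 regions were higher in resting Th1 and 362 in resting Th2. The difference in repeated reads between the 2 libraries moves with the same comparison, and its part in the split was not tested.

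Called regions mostly had few reads in the pair, a sum that is held down where 1 of the 2 libraries has almost none. Among the 3981 regions with 10 to 14 reads in the pair, 2.84% were higher in resting Th1 and 7.59% in resting Th2. Among the 1454 regions with 30 to 49 reads, 6 were higher in resting Th1 and 16 in resting Th2. Of the 576 regions with at least 50 reads, where counting error is smallest, 1 was higher in resting Th1 and 0 in resting Th2. Differences past the 3-fold rule were therefore found mostly among regions with few reads in the pair, where counting error is also largest. They were hardly found among regions with the most reads in the pair. In the library where they were high, called regions were not weak, though that level helped to choose them. The median was 7.19 RPM in resting Th1 for the regions higher there, beside 5.53 over all tested regions. In resting Th2 it was 8.21 RPM for the regions higher there, beside 5.97.

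**Figure D1:**
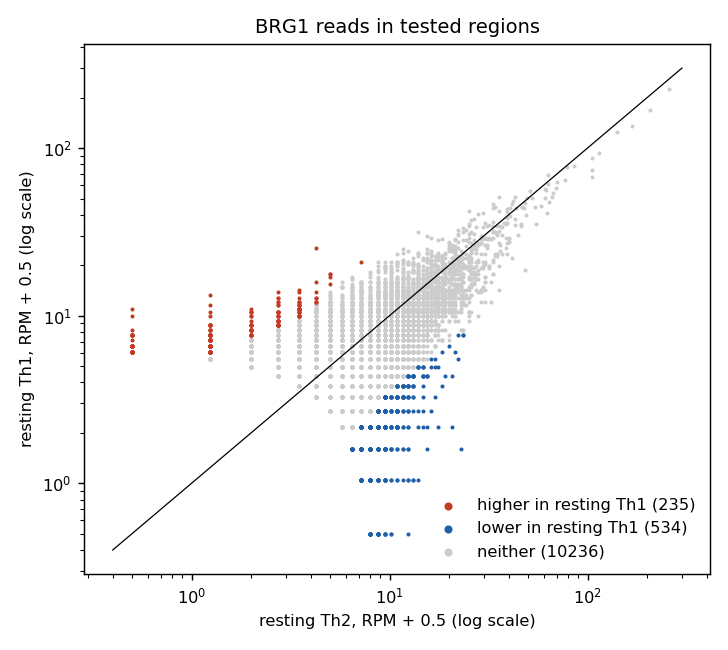
BRG1 level in resting Th1 (vertical axis) against resting Th2 (horizontal axis) for the 11005 tested regions, in RPM with 0.5 added on log axes, with the 235 regions higher in resting Th1 and the 534 higher in resting Th2 marked. The called regions lie at low levels in 1 of the 2 libraries, and the most strongly bound regions lie near the diagonal.

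The 235 regions higher in resting Th1 held 27.1 RPM per kilobase in resting Th1 and 4.72 in resting Th2, against 3.49 in input. They had 10 to 45 reads each in resting Th1, with a median of 13, and 37 of them had no read in resting Th2. The 534 regions higher in resting Th2 held 5.41 RPM per kilobase in resting Th1 and 27.9 in resting Th2, against 2.71 in input. They had 8 to 31 reads each in resting Th2, with a median of 11, and 25 of them had no read in resting Th1. These values chose the regions and describe them only. In the subset where a region was low, its level was 1.35 times the input in resting Th2 for the first set and 2.00 times the input in resting Th1 for the second.

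The 12 regions most in favour of resting Th1, ranked by the bound of the interval nearest 1, ran from 7.19 to 24.9 RPM in resting Th1 with a median of 7.47, and from 0 to 3.73 RPM in resting Th2 with a median of 0. The region at chr15:93744001-93744200 ranked first, with 19 reads in resting Th1 and 0 in resting Th2. After stimulation it had 4 reads in Th1, 2 in Th2 and 7 in Th17, and there were 0 in naive and 0 in input. It was at least 3.46-fold higher in resting Th1 by the lower end of its interval, which takes in the error of both counts, and 4.69-fold higher against the floor of 3 counts.

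Nearby on the same chromosome, the region at chr15:93804801-93805200 had 23 reads in resting Th1 and 1 in resting Th2, a ratio of 17.0 (2.77 to 702). Its other libraries were low, with 3 reads in Th1, 2 in Th2 and 2 in Th17 after stimulation, 3 in naive and 1 in input. Both chromosome 15 regions were therefore high in resting Th1 and low in every other library, including Th1 cells after stimulation.

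The region at chr9:42646401-42646800 behaved differently. It had 20 reads in resting Th1 and 1 in resting Th2, a ratio of 14.8 (2.37 to 614), and 12 reads in Th1 and 1 in Th2 after stimulation, a ratio of 13.1 (1.93 to 558). With 12 reads in stimulated Th17, 5 in naive and 4 in input, it was low in Th2 cells in both states.

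Others of the 12 were bound on both sides after stimulation. The region at chr9:106794201-106794600 had the most reads, 45 in resting Th1 and 5 in resting Th2, a ratio of 6.67 (2.66 to 21.5). After stimulation it had 90 reads in Th1 and 90 in Th2, with 80 in Th17, 26 in naive and 14 in input. The region at chr16:10842401-10842800 had 14 reads in resting Th1 and 0 in resting Th2, then 40 in stimulated Th1 and 37 in stimulated Th2. At chr2:167750401-167751200 the counts were 17 in resting Th1 and 0 in resting Th2, and 27 in stimulated Th1 and 18 in stimulated Th2. All 3 regions had few or no reads in resting Th2, and stimulated Th1 and stimulated Th2 both had reads there.

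The remaining 6 regions each had 13 reads in resting Th1 and 0 in resting Th2. They start at 29244401 and 29580601 on chromosome 2, at 129255401 on chromosome 3, at 64888201 on chromosome 5, at 142509801 on chromosome 6 and at 62972001 on chromosome 9. With resting Th1 thinned to the depth of resting Th2, the regions starting at 29580601 and at 129255401 lost their call. The first of the 6 had 49 reads in Th1 and 25 in Th2 after stimulation, a ratio of 2.13 (1.29 to 3.60). Of the 12 regions as a whole, 10 had a stimulated ratio above 1, beside 57.8% of all regions tested in both states. The interval of that ratio left out 1 in 2 of the 12, and the share over all regions is not given for that measure. At the regions starting at 106794201 and 142509801, where stimulated Th1 and stimulated Th2 had equal reads, the stimulated ratio was 1.09.

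The 12 regions most in favour of resting Th2 ran from 0 to 1.66 RPM in resting Th1 with a median of 0, and from 8.95 to 22.4 RPM in resting Th2 with a median of 10.8. In naive cells they had between 0 and 2 reads. The region at chr9:57875601-57876000 ranked first, with 0 reads in resting Th1 and 16 in resting Th2. Stimulated cells had 14 reads in Th1, 44 in Th2 and 20 in Th17, while naive had 0 and input 5. It was at least 5.20-fold lower in resting Th1 by the end of its interval nearest 1, 7.19-fold lower against the floor of 3 counts, and 2.89-fold lower in stimulated Th1 than in stimulated Th2 (1.55 to 5.71).

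The region at chr16:50289601-50290400 had the most reads of the 12, with 2 in resting Th1 and 30 in resting Th2, 20.2-fold lower in resting Th1 (5.13 to 175). Stimulated Th1 had 19 reads there, stimulated Th2 56, stimulated Th17 9, naive 1 and input 5. On chromosome 2, chr2:48105001-48105600 had 3 reads in resting Th1 and 27 in resting Th2, with 8 in stimulated Th1 and 29 in stimulated Th2. In the same stretch of that chromosome, chr2:48790601-48791000 had 1 read in resting Th1 and 17 in resting Th2, with 5 in stimulated Th1 and 20 in stimulated Th2. All 3 were higher in Th2 in both states, and the last had 0 reads in Th17, naive and input.

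The difference was as plain after stimulation at a pair of other regions. At chr15:66594201-66594400 resting Th1 had 0 reads and resting Th2 13, and stimulated Th1 had 1 read and stimulated Th2 20, 18.4-fold lower in stimulated Th1 (2.94 to 762). At chr13:118049601-118050000 resting Th1 had 0 reads and resting Th2 12, and stimulated Th1 had 1 read and stimulated Th2 22, 20.2-fold lower in stimulated Th1 (3.27 to 835). The chromosome 13 region also had 25 reads in the larger Th17 library, so it was not empty outside Th2 cells. The chromosome 15 region had 2 reads in Th17, 0 in naive and 2 in input.

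Among the rest, chr12:32886801-32887200 had 1 read in resting Th1 and 17 in resting Th2, with 5 in stimulated Th1 and 35 in stimulated Th2. The region at chr1:132640401-132640800 had 1 read in resting Th1 and 18 in resting Th2 but 0 in stimulated Th1 and 4 in stimulated Th2, so it was largely a feature of the resting Th2 library. At chr7:108436401-108436800 the resting counts were 0 in Th1 and 12 in Th2, and the stimulated counts 16 in Th1 and 25 in Th2, 1.44-fold lower in stimulated Th1 with an interval that spans 1 (0.737 to 2.88). The other 3, which start at 63662601 and 70696401 on chromosome 9 and at 130433601 on chromosome 8, had 0 reads in resting Th1 and 12 or 13 in resting Th2. Of the 12 regions, all 12 had a stimulated ratio below 1, and the interval left out 1 in 9. Over all regions tested in both states, 57.8% had a stimulated ratio above 1. The share of all regions whose interval left out 1 is not given here, so the 9 have no background beside them.

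**Figure D2:**
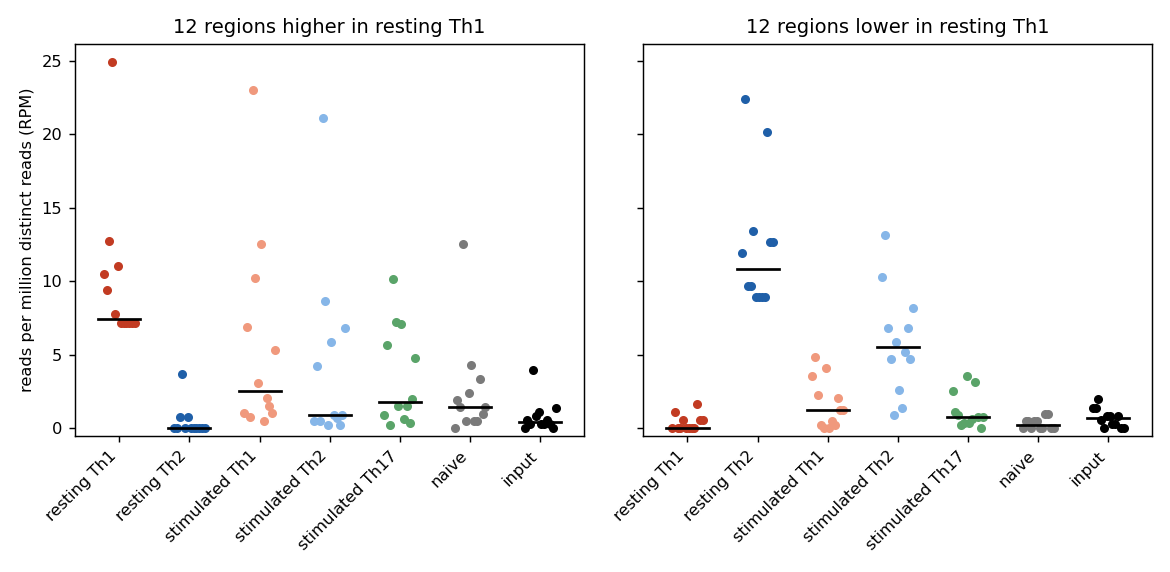
BRG1 level in RPM in each of the 7 libraries at the 12 regions most in favour of resting Th1 and the 12 most in favour of resting Th2, with 1 point per region and a bar at the median. The first panel is high in resting Th1 and mixed after stimulation, and the second is high in resting Th2 and, for most regions, in stimulated Th2.

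At the other end of the scale, the 5 regions with the highest level in both resting libraries had 167 to 408 reads in resting Th1 and 153 to 345 in resting Th2. In 4 of them the input was high as well, with 179 to 483 reads, so reads pile up there without immunoprecipitation too. The fifth, at chr1:46910201-46910800, had 167 reads in resting Th1 and 153 in resting Th2, a ratio of 0.809 (0.646 to 1.01), with 22 in input. After stimulation it had 382 reads in Th1 and 412 in Th2, and naive cells had 148.

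Strong regions with at least 5 times the input level, a limit added after the values were seen, mostly had similar levels in the 2 resting subsets. At chr11:96838601-96839400 there were 139 reads in resting Th1 and 105 in resting Th2, a ratio of 0.981 (0.756 to 1.28). At chr15:79377001-79377400 there were 141 and 114, a ratio of 0.917. The farthest from even of the 5 was chr2:49307401-49307800, with 121 reads in resting Th1 and 141 in resting Th2, a ratio of 0.636 (0.495 to 0.817).

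The direction of the called regions was read again on the strand that had not made the call. When regions were called on reads of the forward strand alone, a split made after the data were seen, 50 were higher in resting Th1 and 148 in resting Th2. Their reverse-strand reads gave a pooled ratio of 1.69 (1.44 to 1.99) for the first set and 0.494 (0.445 to 0.547) for the second, beside 0.923 (0.909 to 0.936) over all regions tested on the forward strand. On the forward reads that had chosen the sets, the ratios were 5.79 and 0.200. Reverse reads of the resting libraries had helped to place these regions, so the split was repeated in regions called in the naive and stimulated libraries alone. There, 35 regions were higher in resting Th1 and 66 in resting Th2 on forward reads, and the reverse reads gave 1.57 (1.30 to 1.91) and 0.547 (0.468 to 0.639), beside 0.931 (0.916 to 0.947) over the 3431 regions tested. The directions were thus the same on the reverse strand, and the differences were smaller there than on the strand that made the call. Both strands come from the same library preparation, so this is no replicate.

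Around the regions higher in resting Th2, the ratio stayed below 1 out to 10 kb. Around those higher in resting Th1 it was near 1 beyond 0.2 kb, and stood above the ratio around all tested regions. Next to the regions higher in resting Th1, the ratio of resting Th1 to resting Th2 was 1.16 (1.04 to 1.30) within 0.2 kb, 1.03 (0.974 to 1.09) at 2 to 5 kb and 1.08 (1.03 to 1.13) at 5 to 10 kb, beside 0.919, 0.879 and 0.882 around all tested regions. Between these it was 1.03 (0.954 to 1.11) at 0.2 to 1 kb and 1.03 (0.944 to 1.11) at 1 to 2 kb, beside 0.885 and 0.857. Next to the regions higher in resting Th2 it was 0.627 (0.582 to 0.676) within 0.2 kb, 0.625 (0.594 to 0.657) at 1 to 2 kb and 0.745 (0.725 to 0.767) at 5 to 10 kb. Set against all tested regions, the imbalance within 0.2 kb was 1.26-fold around the first set and 1.47-fold around the second, and at 5 to 10 kb it was 1.23-fold around the first and 1.18-fold around the second. After stimulation the ratio of Th1 to Th2 at 5 to 10 kb was 1.20 around the first set, 0.881 around the second and 1.06 around all tested regions.

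**Figure D3:**
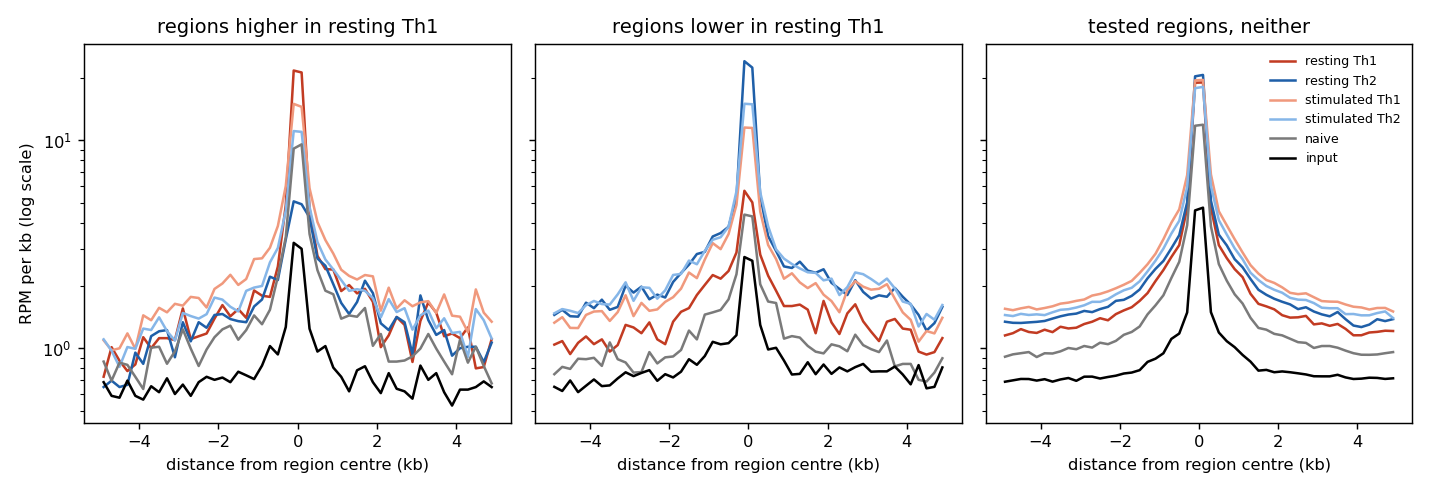
Mean BRG1 level in RPM per kilobase by distance from the region centre, in 200 bp steps out to 5 kb, for the regions higher in resting Th1, those lower in resting Th1 and the other tested regions. Away from the central peak, resting Th1 and resting Th2 run close together around the first set, and resting Th1 stays below resting Th2 around the second.

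Naive cells, the precursors of both subsets, had little BRG1 at the regions higher in resting Th2. There, 142 of 534 regions, or 26.6%, had no naive read, as against 13 of 235, or 5.53%, of the regions higher in resting Th1 and 7.22% of all tested regions. Pooled, naive cells held 10.7 RPM per kilobase at the regions higher in resting Th1, which is 3.08 times the input, and 4.35 at those higher in resting Th2, which is 1.61 times the input. Over all tested regions naive cells held 2.62 times the input. In naive cells, 48 of the regions higher in resting Th1 (20.4%) and 21 of those higher in resting Th2 (3.93%) were called as bound, beside 20.8% of all tested regions.

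The stimulated libraries leaned the same way as the resting ones, by less. In the regions higher in resting Th1, the pooled ratio of stimulated Th1 to stimulated Th2 was 1.36 (1.30 to 1.42). In the regions higher in resting Th2 it was 0.768 (0.747 to 0.789), beside 1.08 (1.08 to 1.09) over all tested regions. Region by region, among those with enough reads in the stimulated pair, the stimulated ratio exceeded 1 in 152 of 195 regions higher in resting Th1 (77.9%), in 133 of 491 higher in resting Th2 (27.1%) and in 5939 of all 10270 (57.8%). On the side that was low at rest, stimulated cells were near the level of all tested regions: stimulated Th1 held 4.89 times the input in the regions higher in resting Th2, beside 4.54 times over all tested regions, and stimulated Th2 held 3.73 times in the regions higher in resting Th1, beside 4.19 times. The low resting levels had chosen the regions, so no change with stimulation is read from them. The stimulated libraries were deeper and less repetitive than the resting ones, and the part of that in the smaller differences was not tested.

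Under the same 3-fold rule, 13 of the regions higher in resting Th1 were also higher in stimulated Th1 and 1 was higher in stimulated Th2, where 0.789% and 1.38% of all regions tested in both states were called in those directions. Of the regions higher in resting Th2, 1 was higher in stimulated Th1 and 71 were higher in stimulated Th2. The regions with the same direction in both states were singled out after their values were seen. The 71 on the Th2 side held 3.78 RPM per kilobase in Th1 and 26.7 in Th2 at rest, 2.86 in Th1, 15.6 in Th2 and 3.99 in Th17 after stimulation, 1.53 in naive and 1.14 in input. In naive cells 34 of them had no read and 1 was called. The 13 on the Th1 side held 22.1 RPM per kilobase in Th1 and 3.57 in Th2 at rest, 13.8 in Th1, 2.65 in Th2 and 7.05 in Th17 after stimulation, 7.03 in naive and 1.66 in input. Of these 13, 3 were called in naive cells and 1 had no read there, beside 20.8% of all tested regions called. Pooled naive reads stood at 4.23 times the input over the 13 and at 1.34 times over the 71. Over all tested regions they stood at 2.62 times.

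Examples on the Th1 side include chr17:74218801-74219000, with 17 reads in resting Th1 and 2 in resting Th2, a ratio of 6.30 (1.50 to 56.2), and 41 in Th1 and 3 in Th2 after stimulation, a ratio of 14.9. Naive cells had 6 reads there, stimulated Th17 17 and input 1. On the Th2 side, chr2:80302001-80302200 had 1 read in resting Th1 and 13 in resting Th2, and 2 in stimulated Th1 and 32 in stimulated Th2. At chr13:83293801-83294000 there were 0 reads in resting Th1 and 10 in resting Th2, and 0 in stimulated Th1 and 17 in stimulated Th2. The region at chr5:66584401-66585000 was the most heavily read of these, with 3 reads in resting Th1 and 23 in resting Th2, and 11 in stimulated Th1 and 58 in stimulated Th2.

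Regions higher in resting Th2 also formed groups along the chromosome. With gaps of up to 50 kb, 4 clusters of at least 3 regions lay on the Th2 side and 0 on the Th1 side. The tightest, at chr3:37190201-37224800, had 7 reads in resting Th1 and 35 in resting Th2 over its 3 regions, a ratio of 0.148 (0.0556 to 0.339), and 23 in Th1 and 60 in Th2 after stimulation, a ratio of 0.417 (0.246 to 0.685). The cluster at chr11:53403801-53470600 had 10 reads in resting Th1 and 33 in resting Th2, and 33 in stimulated Th1 and 69 in stimulated Th2. At chr17:87254801-87337400 there were 8 reads in resting Th1 and 35 in resting Th2, and at chr5:53936801-53985800 there were 6 and 31. In all 4 the interval of the stimulated ratio lay below 1. Since 534 regions stood on the Th2 side and 235 on the Th1 side, the numbers of clusters are not comparable as they stand.

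Differences over longer stretches were read in bins of 100 kb, called at 1.5-fold with an interval that leaves out 1. Of 24798 bins with at least 30 reads, 2049 were higher in resting Th1 (8.26%) and 872 were higher in resting Th2 (3.52%), an order opposite to that of the regions. Measured against the median bin ratio of 1.10, 1092 bins were higher in resting Th1 and 1552 in resting Th2, so the order of the bins turned with the scale. Over all tested bins, 65.0% held no bound region. Of the bins higher in resting Th1, 87.5% held no bound region, and their level was 1.01 times the input in resting Th1 and 0.537 times in resting Th2. Naive cells stood at 1.00 times the input in those bins, near resting Th1. Stimulated cells were below the input there, as resting Th2 was, at 0.628 times in Th1, 0.579 in Th2 and 0.588 in Th17. Of the bins higher in resting Th2, 21.9% held no bound region, and their level was 0.964 times the input in resting Th1 and 1.70 times in resting Th2.

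The share of bins called on the Th2 side grew with the number of bound regions in the bin. Among the 16121 bins without any, 11.1% were higher in resting Th1 and 1.18% in resting Th2. Among the 2481 bins with 4 to 32 regions, 0.685% were higher in resting Th1 and 10.6% in resting Th2. Reads outside the regions carried the difference too: 759 of the 872 bins higher in resting Th2 were called with the reads in regions left out. Of the 534 regions higher in resting Th2, 143 lay in such bins, or 26.8%, beside 7.73% of all tested regions.

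**Figure D4:**
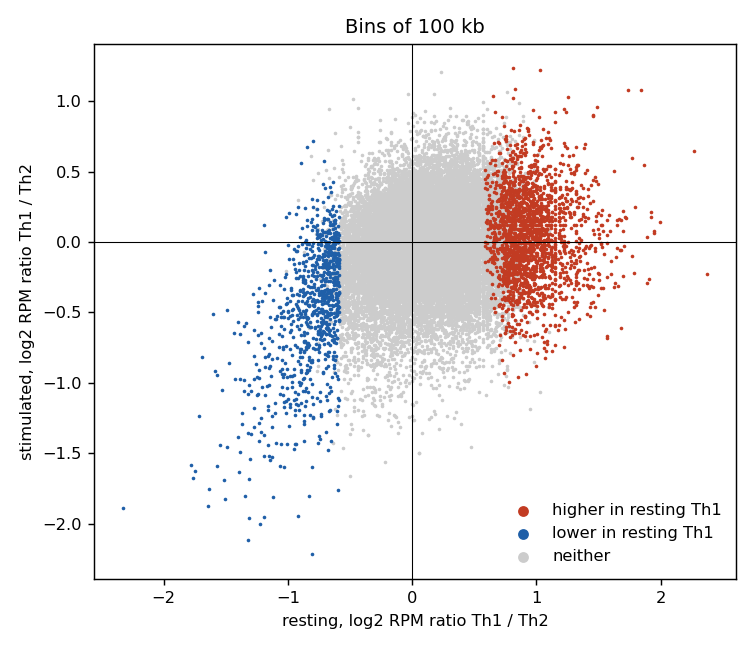
Log2 ratio of resting Th1 to resting Th2 (horizontal axis) and of stimulated Th1 to stimulated Th2 (vertical axis) in bins of 100 kb, 1 point per bin, with the bins called between the resting libraries marked. Bins higher in resting Th2 mostly lie below 0 on the stimulated axis as well, and bins higher in resting Th1 are spread around 0 there.

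Bins on the Th2 side were for the most part lower in Th1 after stimulation too, while bins on the Th1 side were on both sides of even. In the stimulated pair, 36.5% of the bins higher in resting Th2 were higher in stimulated Th2 (318 of 872) and 1 was higher in stimulated Th1, beside 4.78% and 1.6% of all bins. Their pooled stimulated ratio was 0.740 (0.736 to 0.744). Of the bins higher in resting Th1, 90 were higher in stimulated Th1 (4.39%) and 39 in stimulated Th2 (1.90%), and their pooled stimulated ratio was 1.08. Runs of at least 3 neighbouring bins numbered 27 on the Th1 side and 44 on the Th2 side. The interval of the stimulated ratio lay on the same side as at rest in 6 of the 27 and in 43 of the 44. No share over all stretches of such length is given, so these counts have no background beside them. Of the 27 runs 21 held no bound region, as did 1 of the 44, so the runs of the 2 sides are not alike.

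The bin farthest on the Th2 side was chr6:115200001-115300000. It had 49 reads in resting Th1 and 182 in resting Th2, 5.01-fold lower in resting Th1 (3.64 to 7.02), and 145 in Th1 and 583 in Th2 after stimulation, a ratio of 0.271 (0.224 to 0.325). In RPM it held 27.1 in Th1 and 136 in Th2 at rest, 37.0 in Th1, 137 in Th2 and 102 in Th17 after stimulation, 38.6 in naive and 73.0 in input. All 10 of its 10 kb pieces were lower in Th1 in both states, and 48 reads of resting Th1 and 160 of resting Th2 lay outside its 3 bound regions. The imbalance was therefore not limited to the bound regions.

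A second bin on that chromosome, chr6:108200001-108300000, had 105 reads in resting Th1 and 264 in resting Th2, a ratio of 0.295 (0.233 to 0.371), with 252 in stimulated Th1 and 873 in stimulated Th2. The bin chr17:87200001-87300000, which overlaps the chromosome 17 cluster above, had 91 reads in resting Th1 and 226 in resting Th2, a ratio of 0.298 (0.231 to 0.382). At chr16:50200001-50300000, which holds the most heavily read of the 12 Th2-side regions, there were 137 reads in resting Th1 and 296 in resting Th2, a ratio of 0.343 (0.278 to 0.422). The last, chr9:81900001-82000000, had 40 reads in resting Th1 and 102 in resting Th2, a ratio of 0.291 (0.196 to 0.423). All 5 were lower in Th1 after stimulation as well. Th17 cells held 140 RPM in the second chromosome 6 bin, between stimulated Th1 at 64.3 and stimulated Th2 at 205. In the chromosome 9 bin they held 12.2 RPM, where stimulated Th1 was at 20.2 and the input at 41.3.

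**Figure D5:**
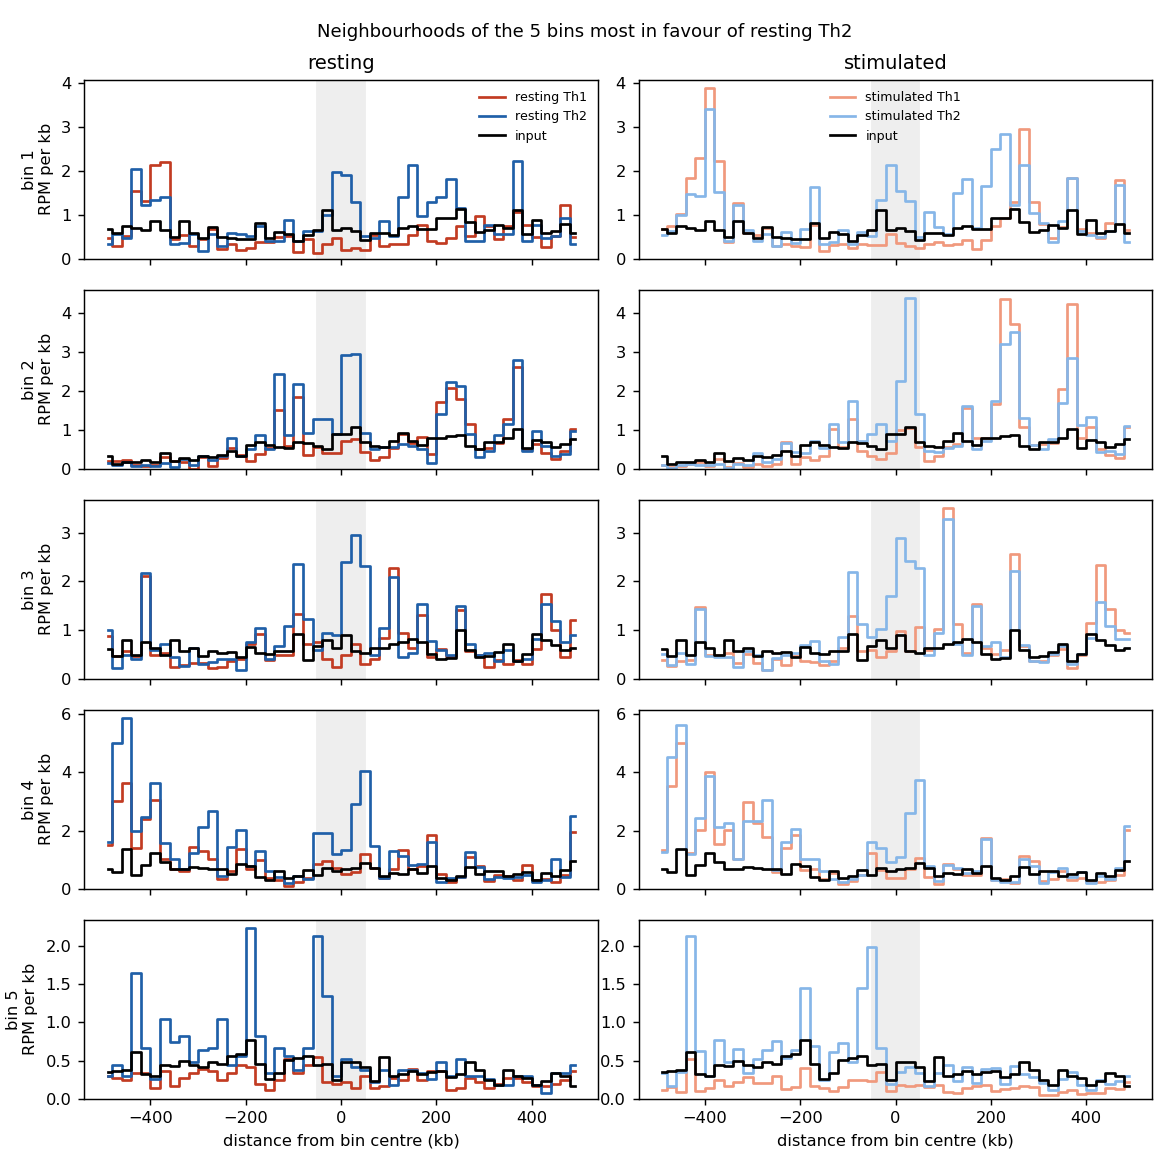
BRG1 level in RPM per kilobase, in steps of 20 kb, along 500 kb on either side of the 5 bins farthest on the Th2 side (shaded, top to bottom in the order of the text), with resting libraries on the left, stimulated ones on the right and input as the black line. Over most of the shaded bins the Th1 libraries lie near or below the input while the Th2 libraries lie above them. In the first row and the last 2 rows the Th2 excess goes on beyond the bin.

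The 5 bins farthest on the Th1 side had no bound region at all. The first, chr14:40500001-40600000, had 42 reads in resting Th1 and 6 in resting Th2, a ratio of 5.19 (2.19 to 14.9), and its stimulated ratio was 0.853. In RPM it held 23.2 in resting Th1, 4.48 in resting Th2 and 25.2 in input. The bins that start at 40200001 on chromosome 13, at 36400001 on chromosome 11, at 23800001 on chromosome 16 and at 63500001 on chromosome 18 had ratios of 3.76, 3.71, 3.44 and 3.64 and, like the first, an interval of the stimulated ratio that spans 1. Over the 5 bins resting Th1 was at 23.2 to 43.7 RPM, resting Th2 at 4.48 to 12.7 RPM and the input at 24.1 to 44.2 RPM. Resting Th2 was below the input in all 5, and so were stimulated Th1, stimulated Th2 and stimulated Th17. Naive cells were at 23.2 to 33.8 RPM over the same bins.

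Bins on the Th1 side with bound regions did occur where both states leaned to Th1, a selection made after the values were seen. The bin chr17:74200001-74300000, which holds the chromosome 17 example above, had 176 reads in resting Th1 and 64 in resting Th2, a ratio of 2.04 (1.52 to 2.76), and 445 in Th1 and 208 in Th2 after stimulation, a ratio of 2.33 (1.97 to 2.76). On chromosome 6 the bin starting at 99300001 had 377 reads in resting Th1 and 153 in resting Th2, a ratio of 1.83 (1.51 to 2.22), and 914 in stimulated Th1 and 559 in stimulated Th2. On chromosome 10 the bin starting at 118400001 had 146 reads in resting Th1 and 52 in resting Th2, with 1.74 as its stimulated ratio.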

How the data were processed

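For every library the authors deposited aligned reads of 34 bases by chromosome, start, end and strand, with no count or score. The deposited positions are on mm9, per the submitters' processing notes. The aligner is not given in the sources used here. Per the labels' protocols, chromatin was crosslinked with formaldehyde, cut with micrococcal nuclease and sonication, and precipitated with the antibody J1, and libraries had 18 PCR cycles and inserts of 250 to 300 bases. Each file carries 1 library and depth ranges from 1340208 to 7892944 distinct reads.

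From these positions, 1 read was kept per chromosome, 5′ end and strand, chromosome Y was left out, and 5′ ends were moved 75 bp downstream. Calling used 1340208 reads of each BRG1 library, drawn at random from the deeper ones. Windows of 200 bp were called at 1e-05 (Poisson), the background being the genome mean or, where larger, the scaled input within 1, 5 or 10 kb, and joined over 1 window. Ratios of RPM use all distinct reads, with conditional exact (Clopper-Pearson) intervals at 95%. A region call needs 10 reads in the pair, a 3-fold ratio and an interval that leaves out 1. A bin call needs 30 reads and a 1.5-fold ratio. Where a percentage of regions or the median ratio has an interval, regions were counted as if independent, which they are not. The interval of the median ratio is one over regions and does not measure the spread between libraries. Regions were named by the interval bound nearest 1 (12 a side), by the highest lower level of the 2 resting libraries (5), as clusters of at least 3 within 50 kb, and bins by the bound (5 a side). The libraries, rules and lists were chosen with earlier results of these data known. Alternatives were the reads kept, depth, scale, thresholds, region set and shift. The ratio rule was tested on simulated counts, and the region calling on simulated read positions of a single chromosome. The other steps were not tested on simulated data. The software was Python 3.11.15, numpy 2.4.6, scipy 1.17.1 and pandas 2.3.3.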

Additional observations from a re-analysis of the deposited data

Results flagged for a closer look

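At 2 regions the resting pair and the stimulated pair were called on opposite sides. The region at chr2:32493601-32493800 had 28 reads in resting Th1 and 5 in resting Th2, a ratio of 4.15 (1.58 to 13.8), and 2 in Th1 and 12 in Th2 after stimulation, a ratio of 0.181 (0.0197 to 0.814). The resting ratio was 22.9 times the stimulated one, with 12 reads in Th17, 3 in naive and 0 in input. The region at chr6:108618401-108618600 had 2 reads in resting Th1 and 9 in resting Th2, a ratio of 0.165 (0.0173 to 0.796), and 21 in Th1 and 6 in Th2 after stimulation, a ratio of 3.81 (1.49 to 11.5). Its resting ratio was 0.0433 times the stimulated one, with 20 reads in Th17, 5 in naive and 3 in input. With 1 library a group the differences between the states were not tested.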

How the results depend on the processing

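No called region or bin recomputed here changed direction, but the order of the bin counts turned with the scale. With repeated reads kept, 18103 regions were called in resting Th1 and 30305 in resting Th2, of which 1624 were higher in resting Th1 and 2975 in resting Th2; the pooled stimulated ratios were then 1.24 and 0.713, the median ratio was 0.859, and 3671 bins were higher in resting Th1. At a tail of 1e-07, 3743 and 4502 regions were called. Divided by the median (then 1), 356 regions were higher in resting Th1, with 1092 bins higher in resting Th1 and 1552 in resting Th2. At least 20 reads in the pair left 65 and 97 regions (median 0.927), regions called in naive or stimulated libraries 119 and 231 (0.937), and forward reads alone, added after the data were seen, 50 and 148, or 35 and 66 in the naive and stimulated regions. The median ratio was 0.845 on the scale of 10 kb bins without regions, where 179 and 624 regions were called, 0.889 with resting Th1 thinned and 0.865 in regions called in either resting library. Bins of 50 kb gave 2201 higher in resting Th1 and 2010 in resting Th2. Of the calls, 108 of 235 and 258 of 534 were made again under each of the median scale, thinning and a shift of 100 bp. Of the 24 named regions, all kept their call with all reads, both other scales and the shift, and 22 did under thinning; only 5 have 20 reads in the pair. No paired analysis was possible because each group has 1 library, and for the same reason no library could be left out. Depth limits the weak regions: 15333 had too few reads to compare.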

Other observations

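Chromosome 15 had the highest share of regions higher in resting Th1, 23 of 504, or 4.56%, beside 2.14% over the genome. With gaps of up to 250 kb, a limit chosen after the data were seen, 3 clusters formed on the Th1 side, and 2 of them lay there. The cluster at chr15:93744001-94018400 holds both chromosome 15 regions of the 12 farthest on the Th1 side, and had 53 reads in resting Th1 and 2 in resting Th2, a ratio of 19.6 (5.18 to 166). In the stimulated pair it had 26 reads in Th1 and 8 in Th2, a ratio of 3.54 (1.55 to 9.04). The 2 named regions held 4 and 3 of these Th1 reads and 2 each of the Th2 reads, so most stimulated Th1 reads lay in its other region. The other, at chr15:97412201-97659600, had 34 reads in resting Th1 and 2 in resting Th2, and 42 in Th1 and 39 in Th2 after stimulation, a ratio of 1.17.

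The third cluster, at chr12:116532001-116745800, had 32 reads in resting Th1 and 2 in resting Th2, and 19 in stimulated Th1 and 7 in stimulated Th2. It lies in the longest run of bins on the Th1 side, chr12:116300001-116900000, with 931 reads in resting Th1 and 365 in resting Th2, a ratio of 1.89 (1.67 to 2.14), and a stimulated ratio of 1.51 (1.37 to 1.67). Among the longest runs on the Th2 side was chr14:10800001-11400000, with 404 reads in resting Th1 and 683 in resting Th2, a ratio of 0.438 (0.387 to 0.497), and 653 in Th1 and 1731 in Th2 after stimulation, a ratio of 0.410 (0.375 to 0.449). The run at chr16:48400001-49000000 had a resting ratio of 0.461 (0.413 to 0.514) and a stimulated ratio of 0.489, with 1762 reads in Th17.

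Regions higher in resting Th2 made up between 2.80% of the tested regions on chromosome 19 and 7.44% on chromosome 13, beside 4.85% over the genome. Among the 147 regions tested on chromosome X, 0 were higher in resting Th1, beside 2.14% over the genome. On that chromosome 7 were higher in resting Th2, or 4.76%, close to the genome share.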
